A study of Mus musculus with 16 samples.

Results

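NF-kB is a family of transcription factors built as dimers from 5 subunits, and the genes described here are those subunits and 5 genes that restrain or tune them. The subunit genes are Rel (c-Rel), Rela (p65), Relb, Nfkb1 (p105, processed to p50) and Nfkb2 (p100, processed to p52). The others are the inhibitors Nfkbia (IkB-alpha) and Nfkbie (IkB-epsilon), the nuclear IkB protein Bcl3, the signaling adaptor Traf1 and the ubiquitin-editing enzyme Tnfaip3 (A20). Their members in the data are the accessible regions (peaks) whose middle lay nearest to 1 of these 10 protein-coding genes and at most 50000 bp from its span in RefSeq's gene table (assembly GRCm38.p6, which is mm10). This rule found 111 of 82188 peaks, each 501 bp wide, and used no measured value. Nfkb1 had 31 peaks, Tnfaip3 16, Nfkbia 13, Traf1 11, Bcl3 10, Rel 9, Nfkbie 7, Relb 6, Rela 5 and Nfkb2 3.

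In resting B cells the IkB proteins hold NF-kB dimers in the cytoplasm. Signals from the B cell receptor, CD40 or Toll-like receptors activate the IKK kinase, which marks IkB for degradation, and the released dimers bind kappaB sites in DNA. Nfkbia, Nfkbie, Bcl3, Traf1, Tnfaip3 and several subunit genes are themselves NF-kB targets, and their products feed back on the pathway. In the germinal center, where B cells mutate their antibody genes and are selected, the pathway is known to be active mainly in light zone cells that receive help from T cells.

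Omni-ATAC, which maps open chromatin by where a transposase can cut, was applied to spleen cells of C57BL/6 mice 8 to 10 weeks old. There were 4 groups of 4 libraries: Smarca4+/+ (WT) and Smarca4+/- (HET), each in cells labelled CB and CC, read here as centroblasts (dark zone) and centrocytes (light zone). Smarca4 encodes BRG1, a motor subunit of BAF remodelers that slide or evict nucleosomes, and HET cells keep a single intact copy. The deleted part, any Cre driver, the immunization, the sort gate and the number of animals behind the libraries are not given in the sources used here. The p-values therefore measure the spread between these libraries, which may be technical. That spread was estimated from all 16 libraries together, although replicates were less alike in CC than in CB. Over all peaks, libraries of a group correlated at 0.985 to 0.992 in the CB groups and at 0.863 to 0.935 in the CC groups (Pearson r).

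WT CC libraries were the thinnest, with 3494356 to 3750936 counts, against 5310327 to 7474760 in HET CC and 31696941 to 51011923 in CB. Intervals from counting would cover counting error only, since reads of a PCR-amplified library are not independent molecules. In a principal component analysis of all peaks, replicate 2 of WT CC stood apart on the second component, so results for CC are also given without it where it changed a call. The B cell marker loci were open in every group, with a sum over 7 loci of 1270 to 1440 CPM in WT CC and 1600 to 1690 in WT CB. Of these 7 loci 5 fell and none rose from CB to CC in each genotype (median log2 -0.219 in WT and -0.17 in HET). CPM is the count scaled to a common library size with trimmed mean of M-values (TMM) factors. The series' design text describes the cells as GC B cells, read here as germinal center B cells, and of 10 marker loci of such cells 9 fell from WT CB to WT CC, with sums of 1830 to 1860 against 1010 to 1110 CPM. Of 10 dark zone loci 8 fell and none rose (2100 to 2180 against 1520 to 1630 CPM). Of 11 light zone loci 4 rose and 4 fell (1980 to 2070 against 1910 to 1990 CPM), so this list did not move in 1 direction and does not bear out the reading of CC as light zone cells, and the groups are called by their labels. The 4 that rose include Nfkbia, which is also among the 10 genes described here. The 13 T cell marker loci summed to between 171 and 180 CPM in WT CB, between 147 and 156 in HET CB, between 413 and 502 in WT CC and between 329 and 428 in HET CC. Of these 13 loci, 11 rose and 2 fell from WT CB to WT CC, and none had a group mean of 0. Loci of other cells moved the same way from WT CB to WT CC. Of 9 myeloid loci 8 rose and 1 fell (257 to 265 against 382 to 398 CPM), of 10 NK cell loci 6 rose and 1 fell (267 to 275 against 326 to 377), and of 7 naive follicular B cell loci 4 rose and 1 fell (1050 to 1080 against 1360 to 1560). Their part in the results below was not tested. Accessibility in a bulk library does not tell apart fewer cells with an open region and a region less open in each cell.

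The promoters are shown first because 8 of the 10 peaks at or nearest to the gene starts rose from WT CB to WT CC. In HET 8 rose, with that of Nfkbie in place of that of Nfkb2, and 1, at Traf1, fell. Among all 17727 peaks within 1000 bp of a gene end, 32.6% rose and 23.8% fell in WT, and 28.7% rose and 28.4% fell in HET. This set takes in both ends of a gene and is not limited to starts. The Nfkb2 peak, 4622 bp from the nearest gene end, is not in it. For Nfkb1 and Relb no start was available, so the peak nearest to either end of the span was taken. The rise counted for Nfkb2 in WT was lost in 6 of 17 alternatives. Each line gives the 250 bases before a RefSeq start (GRCm38.p6, minus strand for Rel, Nfkbia, Bcl3 and Tnfaip3, plus strand for Rela and Nfkb2), 5′ to 3′, in lower case. Capitals mark matches to the kappaB consensus, a 10-base motif searched on both strands, where overlapping matches run together. The start lay in the peak named with it below.
Rel, chr11:23770970-23771219: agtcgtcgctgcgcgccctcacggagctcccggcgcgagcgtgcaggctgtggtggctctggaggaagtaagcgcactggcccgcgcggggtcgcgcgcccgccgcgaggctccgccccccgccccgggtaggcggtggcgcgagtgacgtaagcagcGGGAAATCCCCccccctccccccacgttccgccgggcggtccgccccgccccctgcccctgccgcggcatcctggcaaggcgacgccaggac
Rela, chr19:5637291-5637540: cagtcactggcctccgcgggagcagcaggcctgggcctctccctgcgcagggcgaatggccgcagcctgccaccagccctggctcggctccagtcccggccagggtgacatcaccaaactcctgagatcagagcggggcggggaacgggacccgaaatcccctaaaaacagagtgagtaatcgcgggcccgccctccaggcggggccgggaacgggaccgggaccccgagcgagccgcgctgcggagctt
Nfkb2, first start, chr19:46304487-46304736: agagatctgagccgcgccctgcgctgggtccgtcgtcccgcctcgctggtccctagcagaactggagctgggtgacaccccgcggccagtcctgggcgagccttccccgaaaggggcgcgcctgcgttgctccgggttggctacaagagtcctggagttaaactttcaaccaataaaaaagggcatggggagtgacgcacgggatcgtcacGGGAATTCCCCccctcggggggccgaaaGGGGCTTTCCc
Nfkbia, chr12:55492648-55492897: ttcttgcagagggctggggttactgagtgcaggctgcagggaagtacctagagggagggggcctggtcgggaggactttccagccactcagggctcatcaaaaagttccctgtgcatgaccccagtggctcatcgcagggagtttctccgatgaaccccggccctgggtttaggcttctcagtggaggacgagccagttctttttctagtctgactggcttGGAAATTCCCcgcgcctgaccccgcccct
Bcl3, chr7:19822756-19823005: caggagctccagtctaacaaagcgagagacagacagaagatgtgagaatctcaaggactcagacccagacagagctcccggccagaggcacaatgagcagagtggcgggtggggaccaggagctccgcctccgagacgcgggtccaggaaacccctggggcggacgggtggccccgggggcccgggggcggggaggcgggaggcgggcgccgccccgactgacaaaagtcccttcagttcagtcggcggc
Tnfaip3, second start, chr10:19015411-19015660: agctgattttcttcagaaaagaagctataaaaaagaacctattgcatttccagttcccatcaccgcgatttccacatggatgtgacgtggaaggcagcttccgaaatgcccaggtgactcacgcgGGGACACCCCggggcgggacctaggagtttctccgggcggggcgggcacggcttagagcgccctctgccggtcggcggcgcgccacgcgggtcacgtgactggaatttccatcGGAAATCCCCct

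The table of promoter sequences matched 8 of the 10 genes, with 11 windows, and Nfkb1 and Relb are named only. The kappaB consensus was found in 7 of the 11 windows, belonging to 5 of the 8 genes (Rel, Nfkb2, Nfkbia, Nfkbie and Tnfaip3), against 7.25% of 32851 RefSeq windows of that length. The 32851 windows leave out a chromosome that holds none of the 10 genes. In Rel a match on both strands lay 92 to 83 bases before the start, overlapping another match shifted by 1 base. In Nfkbia a match lay 29 to 20 bases before the start, on the other strand. Nfkb2 held matches 39 to 30 and 11 to 2 bases before its first start, and Tnfaip3 held them 125 to 116 and 12 to 3 bases before its second. No match was found in these windows of Rela, Bcl3 and Traf1. The letters are a description and show no binding.

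The comparison of CC with CB asks how the loci differ between these cell states. Among WT libraries, the summed accessibility of Bcl3, Rel, Nfkbia, Rela and Relb was higher in CC, that of Nfkb1, Nfkbie and Traf1 was lower, and Nfkb2 and Tnfaip3 did not pass the test. The largest rise of a sum was at Bcl3 and the largest fall at Nfkb1. Of the 111 peaks, 40 rose and 34 fell (66.7% called, against 57.9% of all 82188 peaks). By direction, 36% of member peaks rose and 30.6% fell, against 30.2% and 27.7% of all peaks, so the share called was near the background. A call is an adjusted p below 0.05 in edgeR's quasi-likelihood test with Benjamini-Hochberg adjustment over all peaks, or over all 15054 genes with a peak for sums, and every adjusted p below comes from this test unless another tool is named. In HET libraries 38 member peaks rose and 35 fell (65.8% called, against 58.8% of all peaks, of which 30.8% were higher and 28.1% lower). Both comparisons use CB libraries of their own genotype and share none.

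With cyclic loess scaling, the split of the 111 peaks was 43 higher and 21 lower in WT (25.7% and 27.1% of all peaks) and 37 higher and 17 lower in HET (22.7% and 21.4% of all peaks). For the gene sums the split was 5 higher and 3 lower in WT (80% called, against 63.3% of all genes, of which 31.6% were higher and 31.7% lower). It was 5 and 1 with scaling by total counts (5013 and 4525 of all 15054 genes) and 6 and 1 with loess (4855 and 4631 of all genes). In HET it was 5 higher and 2 lower (70% called, against 62.8%, with 31.1% higher and 31.7% lower). Without HET CC replicate 1 only 3 were higher (29.1% of all genes).

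**Figure D1:**
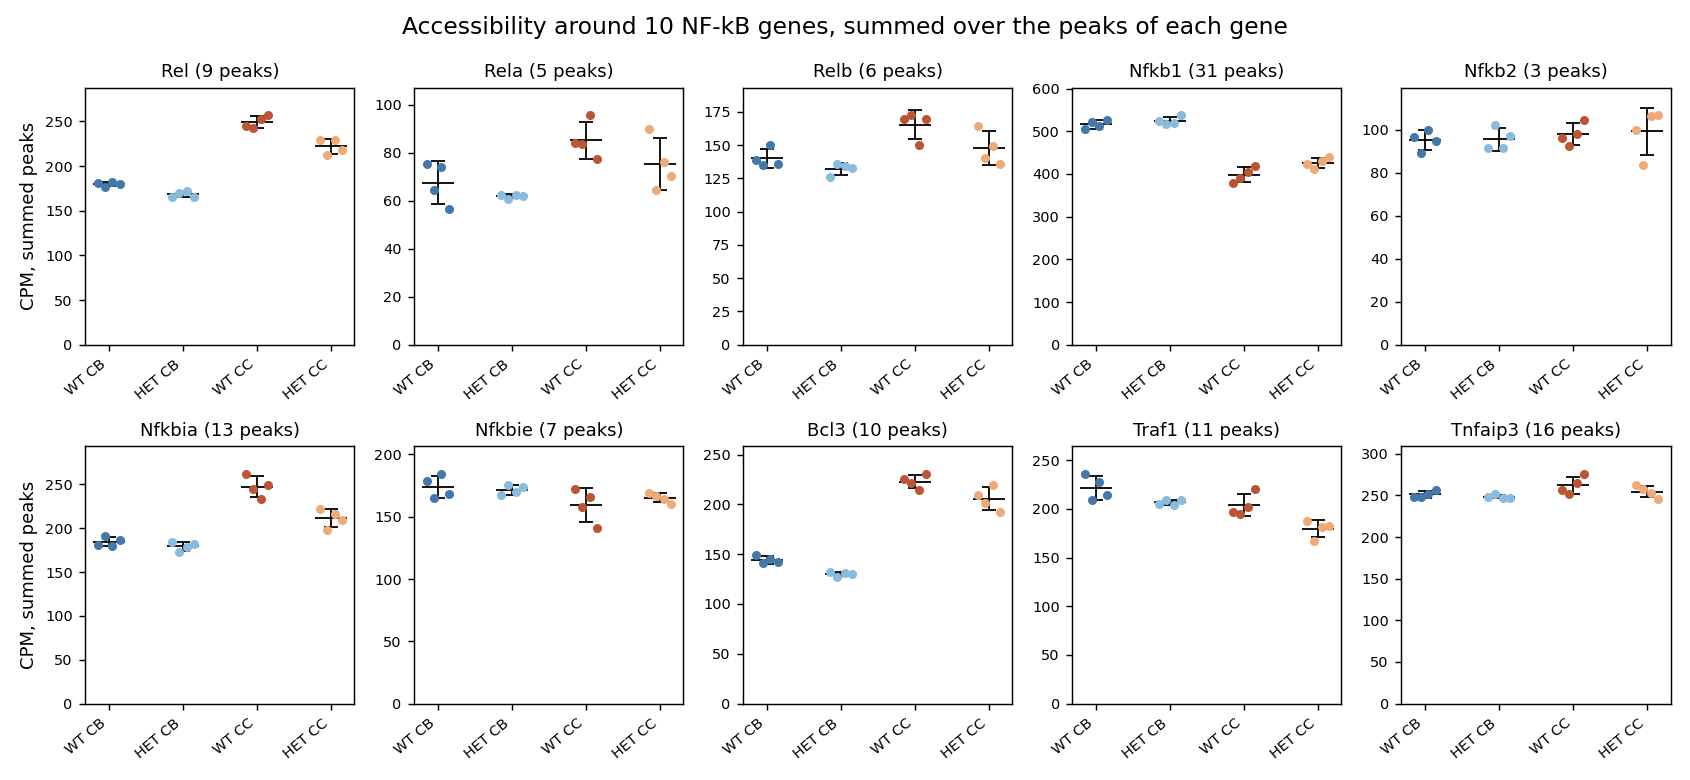
Accessibility around each of the 10 genes, as the sum of its peaks in CPM (vertical axis, from 0) in the 4 groups; points are libraries, and bars give the mean and SD of 4. The CC libraries of Rel, Nfkbia and Bcl3 lie above all CB libraries, those of Nfkb1 lie below them, and those of Nfkb2 overlap them.

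The calls were also counted by position. Of the 21 member peaks within 1000 bp of the end of a gene span, 15 rose and 2 fell in WT, or 71.4% higher against 32.6% of all 17727 such peaks. Their median log2 difference was 0.43, against 0.03 for all. Of the 44 member peaks deeper inside a gene, 8 rose and 18 fell (40.9% lower, against 31.4% of all such peaks), with a median of -0.23 against -0.09. This class also holds the peaks over the first and second starts of Nfkb2. Nfkb1 alone had 31 of the 111 member peaks and 17 of the 34 that fell in WT, at any position. The 46 peaks outside a gene split into 17 higher and 14 lower (37% and 30.4%, near the 33% and 25% of all such peaks). In HET 13 were higher and 2 lower at gene ends (61.9% and 9.52%, against 28.7% and 28.4% of all such peaks). Inside genes 10 were higher and 20 lower in HET (22.7% and 45.5%, against 28.2% and 30.9%), and outside genes 15 and 13 (32.6% and 28.3%, against 35.7% and 23.9%). The share of all counts that fell within 1000 bp of gene ends also moved, from 41.6 to 42.1% in WT CB to 45.0 to 45.8% in WT CC, and its part in this pattern was not tested.

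**Figure D2:**
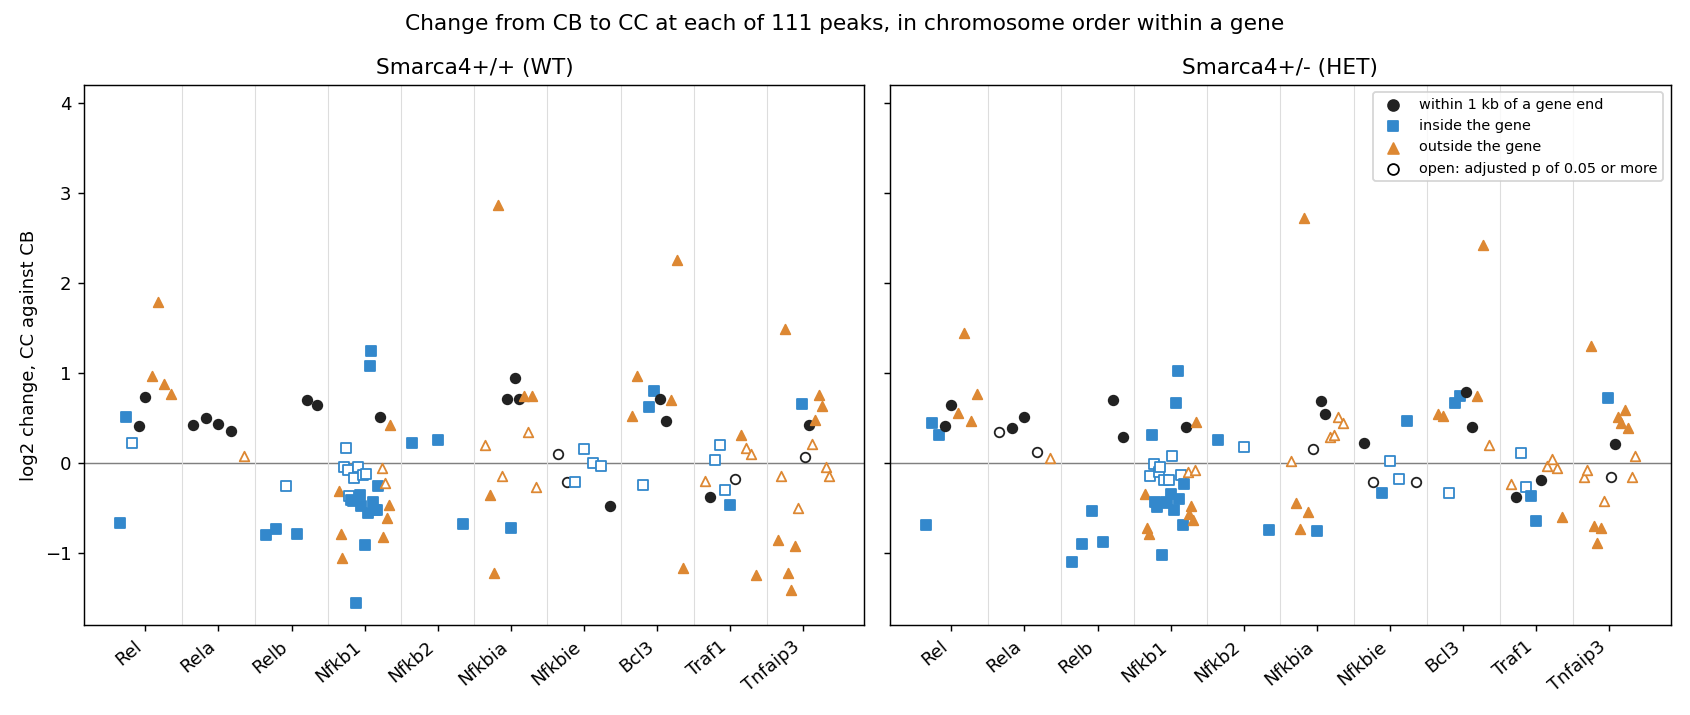
Log2 difference of CC against CB (vertical axis) at each of the 111 peaks, in chromosome order within a gene, for WT (left) and HET (right); filled symbols have an adjusted p below 0.05, and shapes give the place of the peak. Black circles near gene ends lie mostly above 0, and blue squares inside Nfkb1 and Relb mostly below it.

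Among the subunits, Rel is the one most tied to mature and activated B cells. Its 9 peaks summed to 181.4, 177.1, 181.8 and 179.9 CPM in WT CB, 165.0, 170.2, 171.7 and 165.9 in HET CB, 245.2, 242.5, 253.1 and 257.1 in WT CC and 229.0, 212.3, 229.4 and 218.5 in HET CC. All 4 groups were separate from each other, in the order WT CC, HET CC, WT CB and HET CB. The difference of CC from CB was 0.47 log2 in WT (SE 0.043, adjusted p = 3.61e-12) and 0.40 in HET (SE 0.041, adjusted p = 6.65e-11). In WT, 7 of the 9 peaks rose and 1 fell. The peak over the start, chr11:23770831-23771331, was the most accessible and stood at 60.4, 58.6, 61.2 and 62.7 CPM in WT CB and 106.7, 89.5, 108.8 and 100.2 in WT CC (log2 0.74, adjusted p = 3.52e-15). Its HET values were 55.8, 58.2, 59.6 and 54.1 in CB and 89.1, 87.7, 91.9 and 86.9 in CC, again with no overlap (0.64, adjusted p = 2.82e-14).

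The largest rise at Rel was 11234 bp outside the gene on the side of its start, at chr11:23781953-23782453, from 1.53, 1.91, 1.75 and 1.30 CPM in WT CB to 5.84, 2.65, 9.02 and 4.93 in WT CC (log2 1.79, SE 0.29, adjusted p = 4.46e-07). It rested on 9 to 32 counts per WT CC library. The single fall was inside the gene, at chr11:23754207-23754707, from 20.1, 19.2, 20.7 and 19.3 to 14.2, 12.7, 11.6 and 11.5 CPM (-0.67, SE 0.129, adjusted p = 1.21e-05). HET gave nearly the same difference there, -0.70 (adjusted p = 2.05e-07). Rel thus gained at its start, beyond it and at other peaks inside the gene, while this region deep in the gene lost accessibility. In HET it was the only Rel peak that did not rise, as 8 of the 9 rose.

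Rela encodes p65, the main activating subunit of the canonical pathway. Its 5 peaks summed to between 56.5 and 75.5 CPM in WT CB, between 60.6 and 62.6 in HET CB, between 77.5 and 95.7 in WT CC and between 64.3 and 89.9 in HET CC. The difference of CC from CB was 0.33 in WT (SE 0.09, adjusted p = 0.00176) and 0.27 in HET (SE 0.083, adjusted p = 0.00462), where it missed the threshold without HET CC replicate 1 (0.18, adjusted p = 0.0651). WT groups did not overlap and HET groups did not either, and HET CC replicate 1 was the highest of its group. In WT 4 of the 5 peaks rose and none fell. The peak over the start, chr19:5637160-5637660, was both the most accessible and the one that rose most, from 20.6, 18.6, 20.7 and 15.0 CPM in WT CB to 26.7, 29.4, 27.3 and 22.7 in WT CC (0.50, SE 0.124, adjusted p = 0.000487).

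Relb encodes the subunit that pairs with p52 in the alternative pathway. Its 6 peaks summed to 138.9, 135.2, 150.2 and 135.6 CPM in WT CB and 169.8, 172.5, 149.7 and 169.7 in WT CC (log2 0.24, SE 0.057, adjusted p = 0.000339). WT CC replicate 3 lay within the WT CB range, and the other 3 lay above it. In HET the sums were 125.9 to 135.5 in CB and 135.4 to 164.4 in CC (0.16, SE 0.053, adjusted p = 0.01), a call lost without HET CC replicate 1 (0.10, adjusted p = 0.105). The Relb peaks split by position. The 2 at 1 end of the gene span rose and 3 inside it fell in WT, and in HET 2 rose and 4 fell.

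At chr7:19628344-19628844, 844 bp inside the Relb span, accessibility went from 53.1, 55.3, 57.3 and 55.3 CPM in WT CB to 92.3, 100.4, 75.0 and 91.7 in WT CC (0.70, SE 0.072, adjusted p = 3.27e-12). HET gave the same size of rise there, 0.70 (SE 0.066, adjusted p = 1.41e-13). The neighbouring peak chr7:19629218-19629718, 30 bp outside that end, rose by 0.64 in WT (adjusted p = 2.69e-07) and by 0.29 in HET (adjusted p = 0.00605), where the call was lost without HET CC replicate 1 (0.17, adjusted p = 0.135). The deepest fall was at chr7:19614461-19614961, from 3.89 to 4.85 CPM in WT CB to 1.41 to 4.12 in WT CC (-0.81, SE 0.287, adjusted p = 0.0138). It rested on 5 to 14 counts per WT CC library and was lost without WT CC replicate 3 (adjusted p = 0.0901).

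Nfkb1 encodes p105, both an IkB-like inhibitor and the precursor of p50. It was the subunit gene whose accessibility fell, and it has the longest span of the 10, 107315 bp. Its 31 peaks summed to 504.5, 522.7, 512.1 and 526.3 CPM in WT CB, 525.1, 517.5, 520.4 and 537.9 in HET CB, 378.2, 391.7, 405.7 and 419.1 in WT CC and 423.5, 411.7, 429.2 and 439.2 in HET CC. Every CC library lay below every CB library. The difference was -0.37 in WT (SE 0.037, adjusted p = 4.59e-11) and -0.30 in HET (SE 0.036, adjusted p = 2.51e-09). Of the 31 peaks 17 fell and 4 rose in WT, and 16 fell and 5 rose in HET.

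The most accessible Nfkb1 peak, deep inside the gene at chr3:135628689-135629189, went from 42.4, 43.6, 37.7 and 46.2 CPM in WT CB to 23.6, 30.3, 35.0 and 33.4 in WT CC (-0.47, SE 0.094, adjusted p = 1.94e-05). The largest fall, 27769 bp from the nearer end of the span at chr3:135612174-135612674, was from 6.84, 7.75, 7.49 and 8.59 to 2.50, 2.36, 1.97 and 3.56 CPM (-1.56, SE 0.239, adjusted p = 1.49e-07). In HET that peak fell by 1.02 on the log2 scale (adjusted p = 2.14e-06). Against this trend, a peak 558 bp inside the higher-coordinate end of the span, chr3:135691161-135691661, rose from 24.5, 28.3, 22.5 and 24.1 to 45.0, 40.6, 25.6 and 30.4 CPM (0.51, SE 0.111, adjusted p = 8.4e-05). The largest rise by log2, 1.25 at chr3:135675412-135675912, rested on 1 to 16 counts per WT CC library. It was lost without WT CC replicate 3 (0.57, adjusted p = 0.358) and with loess and limma, where the sign was opposite (-0.75, adjusted p = 0.199).

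**Figure D3:**
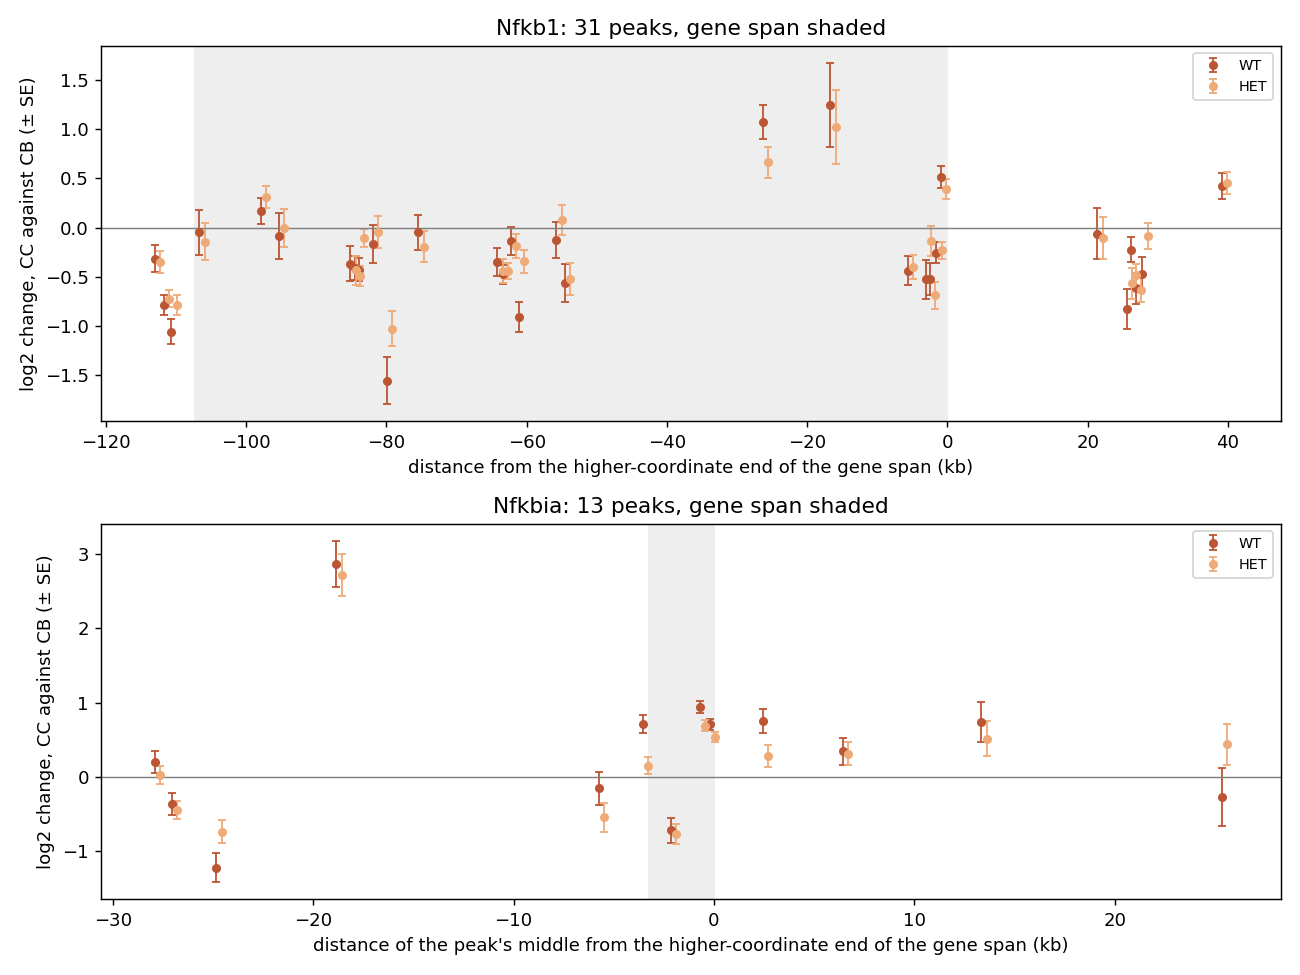
Log2 difference of CC against CB (vertical axis, ± SE) along Nfkb1 and Nfkbia by distance of the peak's middle from the higher-coordinate end of the gene span (kb); the span is shaded, and HET points are drawn slightly to the right of WT points. Most Nfkb1 peaks lie below 0, and the Nfkbia peaks at the right edge of the span lie above it.

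Nfkb2 encodes p100, the inhibitor and precursor of p52 in the alternative pathway. Its 3 peaks summed to 95.2 ± 4.51 CPM in WT CB (SD, n = 4), 95.7 ± 5.33 in HET CB, 97.9 ± 5.11 in WT CC and 99.4 ± 10.9 in HET CC, and all groups overlapped. The sums differed by 0.04 in WT (SE 0.068, adjusted p = 0.617) and 0.05 in HET (SE 0.061, adjusted p = 0.515). The peaks over its first and second starts, chr19:46304341-46304841 and chr19:46305366-46305866, had log2 differences of 0.22 (adjusted p = 0.0165) and 0.25 (adjusted p = 0.0241) in WT, and neither call held with scaling by total counts (adjusted p = 0.0513 and 0.0585), with at least 10 counts in every library (0.0622 and 0.0689), with gene-end TMM factors (0.0887 and 0.0867) or with loess and limma (0.502 and 0.0834). The first was also lost without WT CC replicate 4 (0.113), and the second without WT CB replicate 2 (0.064) or WT CC replicate 3 (0.117). The third, chr19:46308945-46309445 inside the gene, fell from 15.9, 15.8, 17.5 and 18.3 CPM to 13.6, 7.95, 9.02 and 11.5 (-0.68, SE 0.154, adjusted p = 0.000154), and in HET by 0.75 on the log2 scale (adjusted p = 1.35e-06).

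Of the inhibitors, Nfkbia encodes the IkB protein that is resynthesized fastest after NF-kB activation. Its 13 peaks summed to 180.9, 191.1, 179.7 and 186.4 CPM in WT CB, 184.7, 172.4, 178.3 and 182.6 in HET CB, 262.1, 244.6, 233.7 and 249.7 in WT CC and 221.7, 197.8, 216.5 and 209.2 in HET CC. The groups ordered as WT CC, HET CC and then both CB groups, which overlapped. The difference of CC from CB was 0.42 in WT (SE 0.046, adjusted p = 3.29e-10) and 0.23 in HET (SE 0.044, adjusted p = 1.85e-05). In WT 6 peaks rose and 3 fell, and in HET 3 rose and 4 fell.

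The peak over the Nfkbia start, chr12:55492335-55492835, went from 38.7, 44.2, 38.4 and 43.9 CPM in WT CB to 71.7, 61.5, 59.5 and 76.6 in WT CC (0.71, SE 0.077, adjusted p = 1.36e-11). The largest rise of all 111 peaks was 15476 bp beyond the other end of the gene, at chr12:55473683-55474183. There WT CB had 0.845, 0.816, 0.787 and 1.47 CPM and WT CC 3.61, 7.36, 9.87 and 7.94, 7.31 times the level on average (log2 2.87, SE 0.31, adjusted p = 1.27e-11). HET went from 0.998, 0.737, 1.04 and 0.895 to 5.16, 3.30, 9.44 and 6.83 CPM (2.72, SE 0.285, adjusted p = 4.68e-12). It rested on 13 to 35 counts per WT CC library. The largest fall lay 21462 bp beyond the same end, at chr12:55467697-55468197, from 12.0, 12.1, 12.3 and 13.5 to 7.78, 5.30, 5.07 and 3.28 CPM (-1.22, SE 0.193, adjusted p = 2.83e-07).

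Nfkbie encodes IkB-epsilon, an inhibitor with a slower feedback in B cells. Its 7 peaks summed to between 164.8 and 184.4 CPM in WT CB, between 167.4 and 175.8 in HET CB, between 141.0 and 172.3 in WT CC and between 160.5 and 169.0 in HET CC. The difference of -0.13 in WT was called (SE 0.053, adjusted p = 0.0329) but not with scaling by total counts (adjusted p = 0.0797), with loess (0.0941), with the WT groups alone (0.0523), or without WT CB replicates 1 (0.0522) or 3 (0.0829) or WT CC replicates 2 (0.0648) or 4 (0.237). In HET it was -0.06 (adjusted p = 0.318). The start peak, chr17:45555356-45555856, stood at 32.9 to 33.4 CPM in WT CB and 32.0 to 37.5 in WT CC (0.10, adjusted p = 0.387). In HET the start peak was called higher, with 32.5 to 35.5 CPM in CB and 33.2 to 48.3 in CC (0.22, adjusted p = 0.0147). That call was lost with loess and limma (adjusted p = 0.0614) and without HET CC replicates 1 (0.075) or 3 (0.214). Of the 7 peaks 2 rose and 1 fell in HET. The 1 peak called in WT, chr17:45563170-45563670, 251 bp beyond the far end of the gene, went from 21.8, 19.3, 24.3 and 19.8 CPM to 18.1, 15.3, 14.1 and 14.0 (-0.48, SE 0.128, adjusted p = 0.00124), a call lost with loess and limma (-0.26, adjusted p = 0.0562).

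Bcl3 encodes a nuclear IkB protein that acts with p50 and p52 dimers on DNA. Its 10 peaks summed to 149.6, 141.1, 144.8 and 141.7 CPM in WT CB, 131.9, 127.3, 131.1 and 130.3 in HET CB, 225.1, 221.7, 214.6 and 230.7 in WT CC and 209.7, 201.7, 219.2 and 192.5 in HET CC. The CC libraries lay far above the CB libraries in both genotypes. The difference was 0.63 in WT (SE 0.046, adjusted p = 1.41e-14) and 0.66 in HET (SE 0.044, adjusted p = 8.26e-16), the largest of the 10 sums in both. In WT 8 peaks rose and 1 fell, and in HET 8 rose and none fell.

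The most accessible Bcl3 peak, inside the gene at chr7:19817282-19817782, went from 34.3, 30.3, 34.3 and 32.0 CPM in WT CB to 53.6, 60.4, 52.4 and 61.8 in WT CC (0.80, SE 0.08, adjusted p = 1.42e-12). The peak over the start, chr7:19822526-19823026, went from 20.4, 22.6, 19.4 and 18.8 to 37.2, 35.0, 26.2 and 34.5 (0.71, SE 0.109, adjusted p = 1.16e-07). A peak 8088 bp outside the gene on the side of the start, chr7:19830662-19831162, was among the least accessible in CB. It went from 2.27, 2.54, 2.62 and 2.36 CPM to 11.4, 10.3, 13.8 and 11.2 in WT, 4.77 times the level (log2 2.25, SE 0.205, adjusted p = 5.57e-14). In HET it went from 2.56, 2.04, 2.03 and 2.59 to 14.4, 9.63, 16.6 and 9.31 (2.42, SE 0.179, adjusted p = 3.44e-17). The single fall, at chr7:19833979-19834479, rested on 1 to 4 counts per WT CC library and was lost without WT CB replicate 2 (adjusted p = 0.0751) or WT CC replicates 1 (0.0537), 2 (0.0828) or 3 (0.137).

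Traf1 encodes an adaptor that is induced by NF-kB and works with TRAF2 below TNF-family receptors. Its 11 peaks summed to 235.9, 208.8, 227.4 and 214.5 CPM in WT CB, 205.4, 209.3, 204.2 and 208.8 in HET CB, 196.7, 195.1, 202.3 and 219.9 in WT CC and 187.3, 166.7, 181.8 and 182.1 in HET CC. The WT groups overlapped, and the HET groups did not. The difference was -0.12 in WT (SE 0.049, adjusted p = 0.0278) and -0.21 in HET (SE 0.047, adjusted p = 0.000193). The WT call was lost with scaling by total counts (adjusted p = 0.0658), with loess (0.127), and without WT CB replicate 1 (0.083) or WT CC replicates 1 (0.0841), 2 (0.0928) or 3 (0.0543). The start peak, chr2:34961337-34961837, had 33.5, 32.5, 32.4 and 30.9 CPM in WT CB and 27.8, 24.4, 27.3 and 34.5 in WT CC (-0.18, SE 0.093, adjusted p = 0.0958), with WT CC replicate 4 above all WT CB libraries. Without that library it was called lower (-0.28, adjusted p = 0.0157), as it was with total counts (adjusted p = 0.0368), with at least 10 counts in every library (0.0291), with gene-end TMM factors (0.023) and with DESeq2 (0.0368). In HET it was 31.3 to 31.7 CPM in CB and 25.3 to 29.2 in CC (-0.19, SE 0.081, adjusted p = 0.0377), a call lost in 8 of 17 alternatives, among them the removal of any 1 HET CB replicate (adjusted p = 0.0531, 0.0608, 0.0587 and 0.0673) and of HET CC replicates 2 (0.0758) or 3 (0.11). The largest fall was 8499 bp outside the gene on the side of the start, at chr2:34970061-34970561, from 11.4, 9.22, 11.5 and 11.9 CPM to 4.45, 6.18, 4.23 and 3.83 in WT (-1.24, SE 0.194, adjusted p = 2.07e-07). The most accessible Traf1 peak, chr2:34963334-34963834, had 43.4 to 46.5 CPM in WT CB and 46.8 to 52.4 in WT CC (0.17, adjusted p = 0.0504).

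Tnfaip3 encodes A20, which removes activating ubiquitin chains from the pathway's adaptors. Its 16 peaks summed to between 248.2 and 256.0 CPM in WT CB, between 247.3 and 251.1 in HET CB, between 252.1 and 275.8 in WT CC and between 245.7 and 262.1 in HET CC. CB and CC overlapped within each genotype. The sum differed by 0.06 in WT (SE 0.041, adjusted p = 0.181) and 0.03 in HET (SE 0.039, adjusted p = 0.433). With loess scaling and limma both were called, at 0.12 (adjusted p = 0.00615) and 0.10 (adjusted p = 0.0262). Of its peaks 6 rose and 4 fell in WT. The peak over the second start, chr10:19015091-19015591, rose from 46.7, 46.2, 46.9 and 47.0 CPM to 60.3, 69.8, 58.1 and 61.6 in WT (0.42, SE 0.071, adjusted p = 1.17e-06) and by 0.21 in HET (adjusted p = 0.00331), a call lost with loess and limma (0.07, adjusted p = 0.399). The test of these changes against each other gave -0.20 (adjusted p = 0.405). The extremes lay beyond the far end of the gene. At 35905 bp, chr10:18964755-18965255 rose from 3.12, 4.55, 3.66 and 3.58 to 14.7, 5.30, 10.1 and 11.2 CPM (1.49, SE 0.209, adjusted p = 1.79e-08). At 10159 bp, chr10:18990501-18991001 fell from 16.6, 17.8, 16.3 and 17.0 to 4.45, 4.42, 7.89 and 8.48 CPM (-1.42, SE 0.166, adjusted p = 1.45e-10). In HET this peak fell from 17.4, 19.4, 18.4 and 19.9 to 10.7, 9.50, 8.68 and 11.6 CPM (-0.89, SE 0.122, adjusted p = 9.37e-09).

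The comparison of HET with WT asks how the loci differ when cells carry a single intact Smarca4 copy. In CC, the summed accessibility of the inhibitor Nfkbia, of Rel and of Traf1 was lower in HET, and none of the 10 sums was higher (30% called, against 6.65% of all genes, with 3.43% lower and 3.22% higher). At single peaks, 5 were lower and 1 was higher (5.41% called, against 2.06% of all peaks, with 0.979% of all peaks lower and 1.08% higher). Without WT CC replicate 2, the library that stood apart, 2 were lower and 1 was higher (0.425% and 0.43% of all peaks). The number of lower peaks was 3 without WT CC replicate 1 (0.703% of all peaks), and 2 without WT CC replicates 3 (0.939%) or 4 (0.728%). It was 2 without HET CC replicate 4 (0.207%), 1 without HET CC replicate 2 (0.186%) and 6 without HET CC replicate 3 (1.76%). The number of higher peaks was 0 without WT CC replicate 1 (0.706%) or HET CC replicates 2 (0.225%) or 4 (0.231%). It was 2 without WT CC replicate 4 (0.917%) or HET CC replicate 1 (1.74%). Of the 111 peaks, 25 had an unadjusted p below 0.05 in CC, against 17.2% of all peaks. In a fit of the CC groups alone 1 member peak was lower (0.144% of all peaks) and 0 were higher (0.102%). That fit called 186 of all peaks, against 1694 in the reported fit. In CB, the fit of the CB groups alone called 1076 of all peaks, against 106. The numbers of genotype calls in CC and in CB thus depended on which libraries were fitted together.

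Marker loci moved with genotype in CC as well. The 7 naive follicular B cell loci summed to 1360 to 1560 CPM in WT CC, against 1120 to 1330 in HET CC, with 4 of 7 lower. The 10 germinal center loci summed to 1010 to 1110 CPM in WT CC, against 1190 to 1390 in HET CC, with 6 of 10 higher. Of the 13 T cell loci 4 were lower in HET CC. HET CC libraries also lay closer to CB on the first principal component, at 76.2 to 143.2 against 158.9 to 178.1 in WT CC, and were sequenced more deeply. The part of these differences in the genotype results was not tested.

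The Nfkbia locus carried the clearest genotype difference. Its sum was lower in HET CC by 0.23 on the log2 scale (-0.23, SE 0.049, adjusted p = 0.0043), with all 4 HET CC libraries below all 4 WT CC libraries. The call held under all 17 alternatives of processing, of which the fit with no filter repeats the reported one. The peak chr12:55488979-55489479, 180 bp beyond the end of the gene opposite its start, had 22.5, 21.5, 22.3 and 18.9 CPM in WT CC and 13.2, 13.2, 12.8 and 12.7 in HET CC (-0.71, SE 0.143, adjusted p = 0.00528). The HET CC values were within the range of WT CB, with 13.8, 12.2, 14.2 and 11.6 CPM, and HET CB had 11.8, 11.4, 10.9 and 12.6. The peak thus rose from CB to CC in WT (0.72, adjusted p = 1.47e-06), while in HET the difference was 0.15 (adjusted p = 0.261), although the HET CC libraries all lay above the HET CB libraries. With loess and limma the HET difference was 0.41 and was called (adjusted p = 0.00422). The test of that contrast, the interaction, gave -0.56 (SE 0.168, adjusted p = 0.136), and with DESeq2 an adjusted p of 0.024. The genotype call itself held in all 17 alternatives. Of these, the fit with no filter and the 10000 bp limit repeat the reported fit for a single peak and could not change it.

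A second Nfkbia peak, chr12:55491831-55492331, 566 bp inside the gene from its start, had 75.6, 78.3, 62.0 and 66.5 CPM in WT CC and 60.0, 48.4, 57.0 and 52.9 in HET CC (-0.38, SE 0.085, adjusted p = 0.012). The groups did not overlap. The call was lost without WT CC replicate 2 (adjusted p = 0.0619), without HET CC replicate 2 (0.0748) and in a fit of the CC groups alone (0.064). Its neighbour over the start showed a difference of -0.22 (adjusted p = 0.155).

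At Rel, the sum was lower in HET CC (-0.17, SE 0.045, adjusted p = 0.021), again without overlap, and not called without WT CC replicate 4 (adjusted p = 0.0527), HET CC replicates 2 (0.0871) or 4 (0.0664), with the CC groups alone (0.132) or with peaks assigned within 10000 bp (0.0529). The called peak, chr11:23778589-23779089, lay 7870 bp outside the gene on the side of its start, with 21.4, 33.9, 24.2 and 25.2 CPM in WT CC and 21.8, 17.9, 20.2 and 16.1 in HET CC (-0.46, SE 0.133, adjusted p = 0.0482). These groups overlapped, and WT CC replicate 2 was the highest. Without it the difference was -0.32 (adjusted p = 0.244), and the call was lost in 10 of 17 alternatives. These included the removal of WT CC replicates 3 (0.0553) or 4 (0.0674) and of HET CC replicates 2 (0.134) or 4 (0.163).

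At Traf1, the sum was lower in HET CC (-0.18, SE 0.053, adjusted p = 0.0307), without overlap, and not called without WT CC replicate 4 (adjusted p = 0.118) or HET CC replicates 2 (0.139) or 4 (0.0643), with the CC groups alone (0.132) or with gene-end TMM factors (0.0536). The called peak, chr2:34962787-34963287, was 1225 bp outside the gene on the side of its start and had 32.8, 24.7, 29.0 and 36.9 CPM in WT CC and 24.6, 21.6, 23.6 and 21.9 in HET CC (-0.44, SE 0.123, adjusted p = 0.0428), just without overlap. It rose from CB to CC in WT (0.32, adjusted p = 0.00935), a call lost without WT CC replicate 4 (0.22, adjusted p = 0.117), and in HET the difference was -0.03 (adjusted p = 0.807). The genotype call was lost in 10 of 17 alternatives, among them the removal of WT CC replicates 1 (0.102), 3 (0.0539) or 4 (0.174) and HET CC replicates 2 (0.13) or 4 (0.119).

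At Relb, the sum had a difference of -0.17 in CC (SE 0.061, adjusted p = 0.0871). The peak 30 bp outside the gene, chr7:19629218-19629718, was lower in HET CC, with 39.5, 35.0, 37.2 and 37.5 CPM in WT CC and 34.7, 22.6, 30.6 and 24.2 in HET CC (-0.43, SE 0.114, adjusted p = 0.0333). The groups did not overlap. The call was lost without any 1 of the 4 WT CC replicates (adjusted p = 0.0792, 0.0548, 0.0562 and 0.0606) or without HET CC replicates 2 (0.166) or 4 (0.128), and with the CC groups alone (0.127).

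The 1 member peak called higher in HET CC was inside Nfkb1, at chr3:135630991-135631491, with 5.56, 12.1, 9.30 and 9.85 CPM in WT CC and 11.9, 15.3, 15.7 and 13.8 in HET CC (0.63, SE 0.174, adjusted p = 0.0402). WT CC replicate 1 was lowest, and without it the difference was 0.45 (adjusted p = 0.172). The peak fell from CB to CC in both genotypes, by 0.91 on the log2 scale in WT (adjusted p = 7.58e-07) and by 0.34 in HET (adjusted p = 0.00817). The fall in HET was not called with loess and limma (-0.09, adjusted p = 0.684) or without HET CC replicate 1 (-0.27, adjusted p = 0.0535). The genotype call was also lost with the CC groups alone (adjusted p = 0.181) and without WT CC replicates 3 (0.0648) or 4 (0.0551) or HET CC replicates 2 (0.123), 3 (0.0534) or 4 (0.0828). The Nfkb1 sum differed by 0.10 (SE 0.039, adjusted p = 0.141).

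The Tnfaip3 peak with the largest fall, chr10:18990501-18991001, just missed the threshold between genotypes. The WT CC libraries lay between 4.42 and 8.48 CPM, below all HET CC libraries, at 8.68 to 11.6 (0.68, SE 0.201, adjusted p = 0.0561), on 15 to 31 counts per WT CC library. It was called higher in HET CC in 8 alternatives, with total counts (adjusted p = 0.0442), at least 10 counts in every library (0.0378), gene-end TMM factors (0.0461), loess and limma (0.0348) and DESeq2 (0.014), and without WT CC replicates 3 (0.0464) or 4 (0.033) or HET CC replicate 3 (0.0321).

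**Figure D4:**
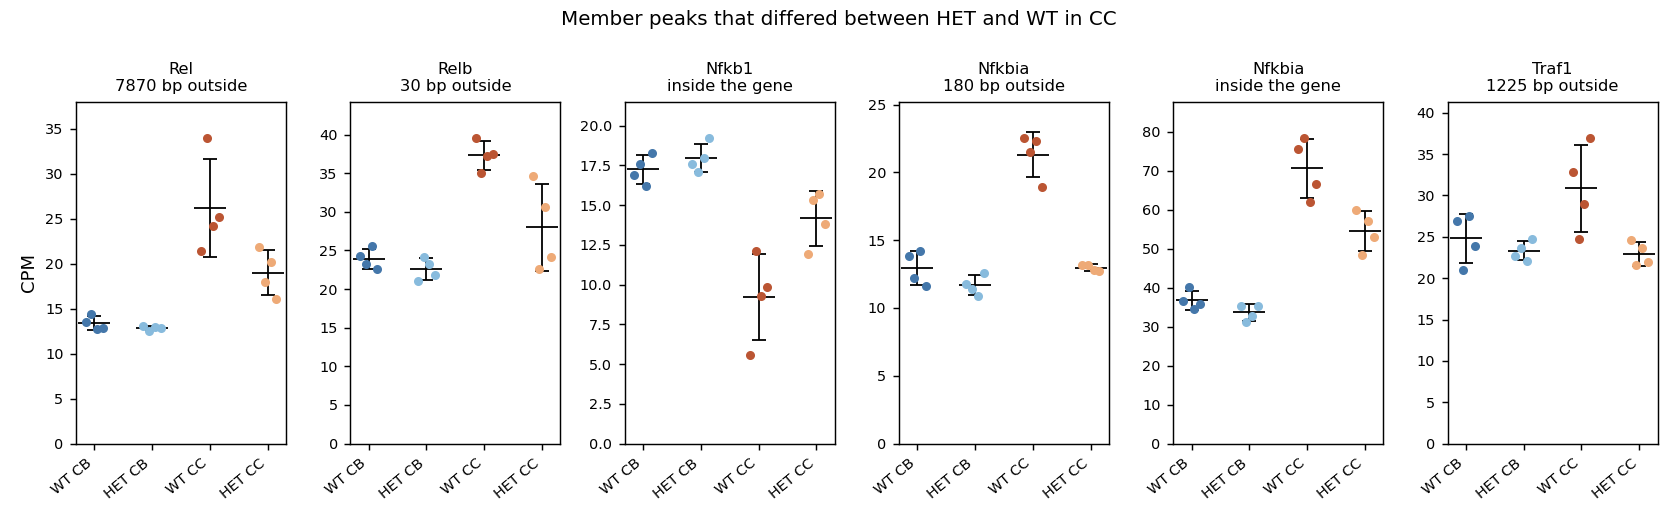
Accessibility in CPM (vertical axis, from 0) of the 6 member peaks called between HET and WT in CC, in the 4 groups; points are libraries, and bars give the mean and SD of 4. At the Nfkbia peak 180 bp outside the gene the 4 HET CC libraries lie between 12.7 and 13.2, below the WT CC libraries at 18.9 to 22.5.

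In CB, none of the 111 peaks passed the test between genotypes (0.129% of all peaks did, 0.127% lower and 0.00243% higher), and 5 of 111 had an unadjusted p below 0.05, against 7.9% of all peaks. DESeq2 also called none of these peaks (0.642% of all peaks were lower and 0.145% higher). A fit of the CB groups alone called 1 lower (0.804% of all peaks) and 0 higher (0.507%). This was the peak over the Bcl3 start, with 18.8 to 22.6 CPM in WT CB and 16.2 to 18.6 in HET CB. Its difference was -0.24 in that fit (adjusted p = 0.0493) and -0.25 in the reported one (adjusted p = 0.258). None of the 10 sums passed (0.558% of all genes did, 0.525% lower and 0.0332% higher), and 3 of 10 had an unadjusted p below 0.05, against 9.78% of all genes. The smallest adjusted p was at Bcl3, whose HET CB libraries, at 127.3 to 131.9 CPM, all lay below the WT CB libraries at 141.1 to 149.6 (-0.15, SE 0.04, adjusted p = 0.0906). DESeq2 called this sum (adjusted p = 0.00069) and that of Rel (-0.10, adjusted p = 0.0094). The fit of the CB groups alone called both as well (adjusted p = 0.00991 for Bcl3 and 0.047 for Rel). Gene-end TMM factors called that of Bcl3 (adjusted p = 0.0446). At Rel, HET CB had 165.0 to 171.7 CPM and WT CB 177.1 to 181.8, with -0.10 (SE 0.038, adjusted p = 0.31) in edgeR.

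The interaction, the genotype difference in CC minus that in CB, was not called at any member peak (0.159% of all peaks were, 0.128% higher and 0.0316% lower) or sum (0.412% of all genes were, 0.352% higher and 0.0598% lower). At an unadjusted p below 0.05 there were 14 of 111 peaks (11.4% of all peaks) and 1 of 10 sums (12.9% of all genes), near the background, and DESeq2 called 1 peak, the one beyond the end of Nfkbia. A difference between genotypes in CC is therefore not shown to differ from that in CB. The Nfkbia sum had the largest interaction of the 10, -0.19 (SE 0.064, adjusted p = 0.173, and 0.0524 with DESeq2).

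The wider pathway was read through 57 other genes, of which 52 had a peak, and Tnf, Lta, Ltb, Traf5 and Bcl2a1a were not measured here. From WT CB to WT CC 25 of the 52 sums rose and 19 fell (84.6% called, against 63.3% of all genes), with a median of 0.12 against -0.01 for all genes, and in HET 25 rose and 18 fell (82.7%, against 62.8% of all genes). Of the 9 receptors and ligands, 3 rose and 4 fell in WT. Ltbr, the lymphotoxin receptor of the alternative pathway, went from 2.39 ± 0.339 to 11.6 ± 2.04 CPM (SD, n = 4; log2 2.27, adjusted p = 4.52e-12). Tnfrsf1a, a TNF receptor, went from 8.42 ± 0.487 to 25.2 ± 2.68 (1.58, adjusted p = 4.59e-13). Both are genes of many cell types, and the 6 stromal marker loci, of which 4 rose, summed to 259 to 291 CPM in WT CB and 359 to 422 in WT CC. The part of other cell types in these rises was not tested.

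Of the 17 adaptors and kinases, 8 rose and 5 fell. Traf2, the partner of TRAF1, rose from 89.8 ± 2.76 to 130.1 ± 6.25 CPM (SD, n = 4; log2 difference 0.53, adjusted p = 6.35e-11). Of the 11 other inhibitors, 7 rose and 3 fell. Tnip3, an A20-binding protein, rose from 46.9 ± 2.54 to 105.1 ± 5.58 CPM (1.17, adjusted p = 2.83e-13), and Nfkbiz, a nuclear IkB protein, from 206.6 ± 6.19 to 278.1 ± 8.99 (0.43, adjusted p = 4.46e-11). Of the 15 other target genes 7 rose and 7 fell. Cd86, a costimulatory ligand and light zone marker, fell from 309.5 ± 11.3 to 179.4 ± 2.96 (-0.79, adjusted p = 1.22e-17), and Il10, a cytokine gene, from 125.3 ± 4.79 to 66.2 ± 12.1 (-0.92, adjusted p = 1.3e-12).

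Between genotypes in CC, 4 of the 52 other pathway sums were lower in HET and 2 were higher (11.5% called, against 6.65% of all genes, with 3.43% lower and 3.22% higher). The lower ones included the nuclear IkB genes Nfkbiz, with 278.1 ± 8.99 CPM in WT CC and 243.8 ± 10.4 in HET CC (SD, n = 4; -0.19, adjusted p = 0.00962), and Nfkbid, with 123.0 ± 4.28 and 102.6 ± 8.64 (-0.27, adjusted p = 0.021). The others were Birc2, a ubiquitin ligase of the TRAF complex (-0.25, adjusted p = 0.0279), and the chemokine receptor gene Ccr7 (-0.31, adjusted p = 0.0178), which is also in the naive follicular list. The sum of the member gene Bcl3, which also encodes a nuclear IkB protein, was not called in CC (-0.12, SE 0.049, adjusted p = 0.141). DESeq2 called it lower (adjusted p = 0.0443). Cd86 (0.18, adjusted p = 0.0238) and Il10 (0.30, adjusted p = 0.0361) were higher. In CB only Il10 was called, higher in HET (0.23, adjusted p = 0.0481). None of the 52 was called in the interaction, where Nfkbiz had -0.22 (adjusted p = 0.075).

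Across all 16 libraries, the loci whose sums followed Rel most closely among 7526 genes were Lfng (Pearson r = 0.992), Klf6 (0.992) and Sgk1 (0.991). Those most like Nfkb1 were Camk2d (0.987), Bfsp2 (0.987) and Aacs (0.986). The 16 points fall into a CB and a CC cluster that also differ in depth, and the values are a description with no test.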

How the data were processed

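The authors deposited a table of raw counts per peak for the whole series, and each of its 16 count columns matched the title of 1 sample. Per the submitters' processing notes, the genome build was mm10 and the tools included BWA, FastQC, deepTools and R 4.2.1. The peak caller and the counting method are not given in the sources used here. Peaks were assigned to the nearest protein-coding span of the RefSeq table (GRCm38.p6), and 74773 (91%) of 82188 had a gene within 50000 bp. Exons and introns were not used here. Peaks, and sums of peaks over 15054 genes, were tested with edgeR 4.0.16 in R 4.3.3 (TMM, filterByExpr, which removed none, robust quasi-likelihood fits of all 16 libraries by group, Benjamini-Hochberg adjustment over all features), and the method was tested on simulated data. Log2 differences carry the SE of the fit.

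Named were all 10 sums and, per gene, the peaks nearest the start, most accessible, with the largest called rise and fall in WT, and called by genotype; per pathway list, the 2 genes with the smallest p and those called by genotype. One gene named by this rule is not reported here. The members and lists were chosen with earlier results of these data known. Alternatives were total-count scaling, TMM on gene-end peaks, loess with limma 3.58.1, DESeq2 1.42.0, other filters, a replicate block, a 10000 bp limit, the compared groups alone and each replicate left out. The fit with no filter repeats the reported one, and the 10000 bp limit does so for single peaks. These count among the alternatives although they could not change those calls.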

Additional observations from a re-analysis of the deposited data

Results flagged for a closer look

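In 4 of 176 groups of 4 libraries, each a gene sum or a named peak, 1 library lay far from the other 3, and chance gives about 1 in 20 such groups. The sum of Relb in WT CC replicate 3 was 149.7 CPM, against 169.7 to 172.5 in the others. The Nfkb1 peak chr3:135612174-135612674 stood at 2.75 CPM in HET CC replicate 1, against 3.96 to 4.15. The Nfkbia peak chr12:55473683-55474183 stood at 1.47 CPM in WT CB replicate 4, against 0.787 to 0.845. The Nfkbie peak chr17:45563170-45563670 stood at 23.9 CPM in HET CB replicate 2, against 21.2 to 21.5.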

How the results depend on the processing

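Over 3985 pairs of a sum or named peak with an alternative, 100 calls were lost with the sign kept, 41 were gained and 2 were lost with the opposite sign. Both of the latter were at the Nfkb1 peak chr3:135675412-135675912 with loess and limma. There CC against CB was -0.75 in WT (adjusted p = 0.199) and -0.5 in HET (adjusted p = 0.42), and neither was called. The cause was not tested. The member peaks lower in HET CC numbered 5, with 0.979% of all peaks lower, and shares of all peaks follow in brackets. They numbered 3 with total counts (0.596%), 3 with at least 10 counts in every library (1.15%) and 3 with the replicate block (0.717%). With gene-end TMM there were 3 (0.545%), with DESeq2 10 (3.04%) and with the CC groups alone 1 (0.144%). With a replicate left out there were 1 to 6 (0.186% to 1.76%). The higher ones numbered 1 (1.08%), against 2 with total counts (1.42%), 3 with at least 10 counts (1.7%) and 2 with gene-end TMM (1.36%). They numbered 3 with loess (2.24%), 3 with DESeq2 (2.63%), 0 with the CC groups alone (0.102%) and 0 to 2 with a replicate left out (0.225% to 1.88%). In CB 1 peak was lower with the CB groups alone (0.804%), and in the interaction 1 with DESeq2 (0.67%). Peaks lower in CC than in CB numbered 21 in WT (27.1%) and 17 in HET (21.4%) with loess. With a replicate left out, CC against CB gave 35 to 41 higher (28.6% to 29.5%) and 29 to 34 lower peaks (25.2% to 26.8%) in WT. In HET it gave 32 to 41 higher (28.5% to 29.9%) and 31 to 37 lower (21059 to 22606 of all 82188 peaks). Sums lower in HET CC numbered 3 (3.43% of all genes), against 5 with DESeq2 (6.01%) and 1 with the CC groups alone (1.02%). With a replicate left out there were 1 to 4 (158 to 723 of all 15054 genes). Sums lower in HET CB numbered 0 (0.525%), against 1 with gene-end TMM (0.731%), 2 with DESeq2 (1.43%) and 2 with the CB groups alone (2.44%). With peaks assigned within 10000 bp, 30 of 84 member peaks rose and 25 fell in WT (30.2% and 27.7% of all peaks). Deviations of same-numbered CB and CC libraries from their group means correlated weakly, at 0.029 to 0.074, and all were positive. The same number was the best match for WT CB replicates 1, 2 and 4 and HET CB replicates 1, 3 and 4. It was not for WT CB replicate 3 and HET CB replicate 2. Between genotypes the same number was never the best match (-0.12 to 0.009). Whether same-numbered libraries share a source was not tested, and the replicate block was used as an alternative only. The thin WT CC libraries, with a median of 22 to 24 counts per peak, limit what differences can be called in CC.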
